A study of Mus musculus with 2 samples.

Results

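The genes described here encode the respiratory chain of mitochondria and its ATP synthase, in the kidney after ischemia/reperfusion. They were chosen by symbol alone. The nuclear part held the 94 genes whose symbols start with Nduf, Cox4 to Cox8, Uqcr or Atp5, together with Sdha, Sdhb, Sdhc and Sdhd. The mitochondrial part held the 13 protein genes of the mitochondrial genome, whose symbols start with mt-. Together these were 107 of the 32285 genes listed in the deposited matrices. The nuclear part comprised 37 genes of complex I, 4 of complex II, 8 of complex III, 20 of complex IV, 17 of complex V and 8 assembly factors of complex I (the Ndufaf genes). The mitochondrial part comprised 7 genes of complex I, 1 of complex III, 3 of complex IV and 2 of complex V.

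The respiratory chain passes electrons from NADH and succinate to oxygen through complexes I to IV, and the proton gradient this builds drives ATP synthesis by complex V. Complex II is encoded wholly in the nucleus, whereas the other complexes combine subunits made from nuclear mRNAs with subunits made inside the mitochondrion from its own genome, which is transcribed by separate machinery. Kidney tubules that reabsorb salt against a gradient, such as the proximal tubule, the thick ascending limb and the distal convoluted tubule, depend on this pathway for their ATP, and their mitochondria are known to be injured when blood flow stops.

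The data were 2 single-cell RNA libraries, 1 from a control kidney and 1 from an ischemic kidney. Both came from wildtype male C57BL/6J mice aged 19 weeks. The ischemic kidney had 27 min of ischemia and 24 h of reperfusion, while the control kidney was the uninjured contralateral organ, so it is the other kidney of an operated mouse and not a sham control. Each library was made from 1 kidney. With 1 library per group there was no replicate and no test between groups. Each ratio below therefore compares these libraries, and the 95% intervals cover counting error only.

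After cells with under 200 genes, under 500 or over 150000 UMIs (unique molecular identifiers, each standing for 1 captured mRNA), or over 55% mitochondrial UMIs were left out, 12586 control cells and 13116 ischemia cells remained. They held 124679362 and 128733541 UMIs in all. Median depth differed, at 3839 UMIs per control cell and 2138.5 per ischemia cell. The limit on mitochondrial UMIs removed 2517 control and 2136 ischemia barcodes. The libraries shared 88 cell barcodes. Levels of nuclear genes are given as CPM, the counts per 1000000 nuclear-encoded UMIs (all UMIs less those of the mt- genes), so that a cell's mitochondrial share does not set them, and those of mitochondrial genes as a percent of all UMIs. A gene is called lower or higher in a cell type only where its ratio of ischemia to control passed 1.5-fold and at least 100 UMIs were counted there over both libraries. For all other differences only the values are given.

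Cells were grouped without using any of the 107 genes, and 16 of 18 clusters took a name from marker genes, giving 13 cell types. The 2 clusters without a name held 10470 and 1594 cells. These count in the values over all kept cells but belong to none of the types. The largest type was proximal tubule (PT)-like cells, with 3909 control and 2775 ischemia cells, which carried Slc5a12 and Slc7a13 among their leading genes. Thick ascending limb (TAL)-like cells numbered 491 and 484 and were led by Slc12a1 and Umod, and distal convoluted and connecting tubule (DCT-CNT)-like cells numbered 463 and 350 and were led by Slc12a3, Trpm6 and Pvalb. Intercalated (IC)-like cells were few, at 58 and 45, and had Slc26a4, Hmx2 and Slc4a9 among their leading genes. Aqp6, also on the IC marker list, was instead among the leading genes of the cluster led by Aqp2. Whether the IC-like cells stand for all intercalated cells was not tested. Of the 94 nuclear members, 93 had a UMI in the kept cells and Cox8c had none. Cox8c, Cox7b2 and Cox8b had under 100 UMIs in all and could not be called in any type. The nuclear part took 4.10% of all kept UMIs and the mitochondrial part 22.6%.

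In the control kidney the nuclear part was highest in DCT-CNT-like cells, at 85726 CPM (95% interval 85509 to 85945). TAL-like cells followed at 80151, IC-like cells at 73055, collecting duct principal cell (CD-PC)-like cells at 59955, PT-like cells at 56572 and thin limb-like cells at 48693. Podocyte-like, pericyte/mesenchymal-like and neutrophil (PMN)-like cells lay between 31413 and 31800, with overlapping intervals. Endothelial (EC)-like cells at 27020 and T cell-like cells at 26621 also had overlapping intervals. B cell-like cells at 24574 and macrophage-like cells at 24243 were at the bottom and had overlapping intervals as well. In the ischemic kidney TAL-like cells, at 39897 CPM, lay under PT-like cells at 53607 and DCT-CNT-like cells at 51042.

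**Figure D1:**
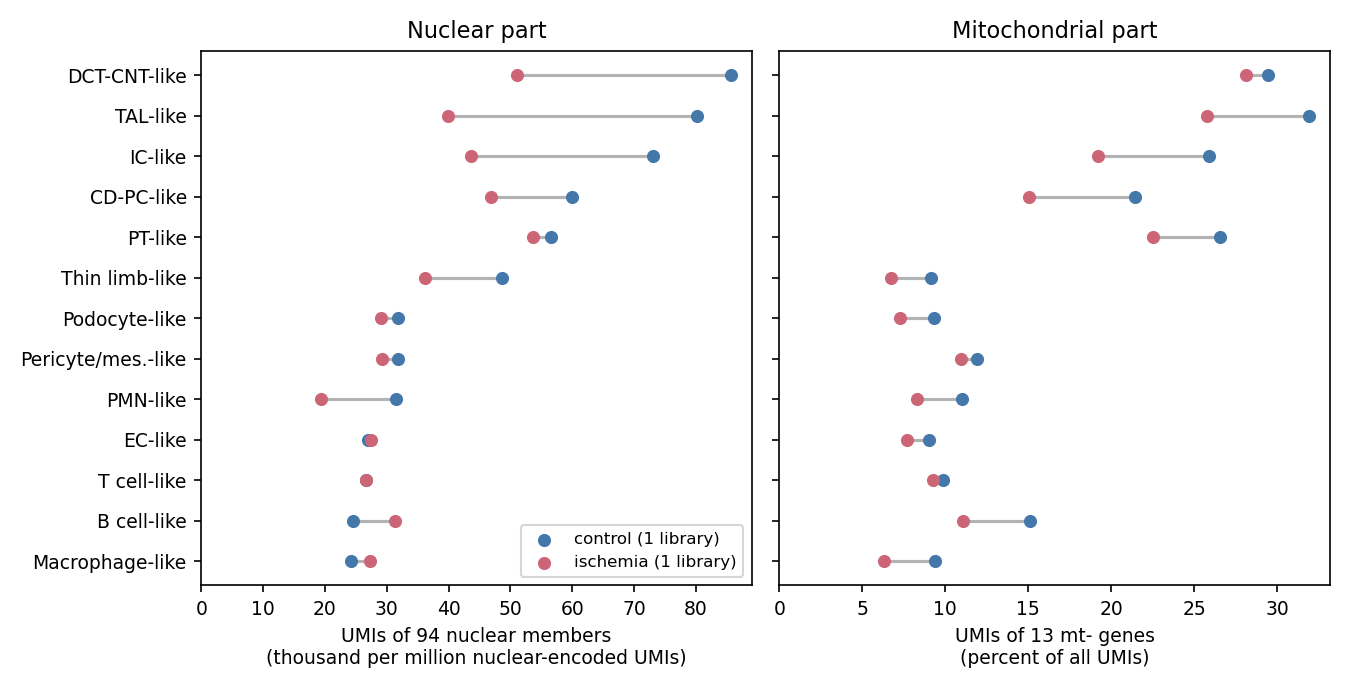
Nuclear part (left, CPM in units of 1000) and mitochondrial part (right, percent of all UMIs) in each cell type, with 1 point for the control and 1 for the ischemia library. The nuclear part of TAL-like cells moved from 80151 to 39897 CPM, and that of PT-like cells from 56572 to 53607.

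In the scaling used here, the nuclear part differed most between the kidneys in TAL-, DCT-CNT- and IC-like cells. In TAL-like cells the nuclear part was 80151 CPM in control and 39897 in ischemia, a ratio of 0.498 (0.496 to 0.500). In DCT-CNT-like cells it was 85726 and 51042, a ratio of 0.595 (0.593 to 0.598). IC-like cells, which secrete acid or base along the collecting duct, had 73055 and 43681, a ratio of 0.598 (0.590 to 0.606). PT-like cells, in contrast, had 56572 and 53607, a ratio of 0.948 (0.946 to 0.949). Over all kept cells, which mix these types in different proportions, the ratio was 0.802. The order of the types depends on the scaling. Relative to ribosomal protein UMIs the log2 ratio was -1.37 in TAL-like, -1.30 in CD-PC-like, -1.12 in thin limb-like, -1.03 in DCT-CNT-like and -0.72 in IC-like cells, and -0.67 in PT-like cells.

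In most types the single cells were shifted in the direction of the summed level, most clearly in TAL-like cells. Podocyte- and B cell-like cells were exceptions. The podocyte-like median was 35294 CPM in control and 37704 in ischemia, although the sum was lower in ischemia. The B cell-like median was 25049 and 23318, although the sum was higher. The median TAL-like cell had 79464 CPM in control and 37190 in ischemia, and the middle 50% of cells ran from 56470 to 97185 and from 27905 to 45618, without overlap. Of the TAL-like cells of the ischemic kidney, 99.4% lay below the control median and 92.4% below the control lower quartile. DCT-CNT-like cells had a median of 72542 in control and 44917 in ischemia. There 92.6% of ischemia cells lay below the control median, but only 38.9% below the control lower quartile. In IC-like cells these shares were 77.8 and 33.3%. In PT-like cells, with medians of 55244 and 52909, the share below the control median was 54.9%, and in macrophage-like cells 31.0%. Cells of 1 library are not replicates of a condition, so these shares describe the libraries.

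**Figure D2:**
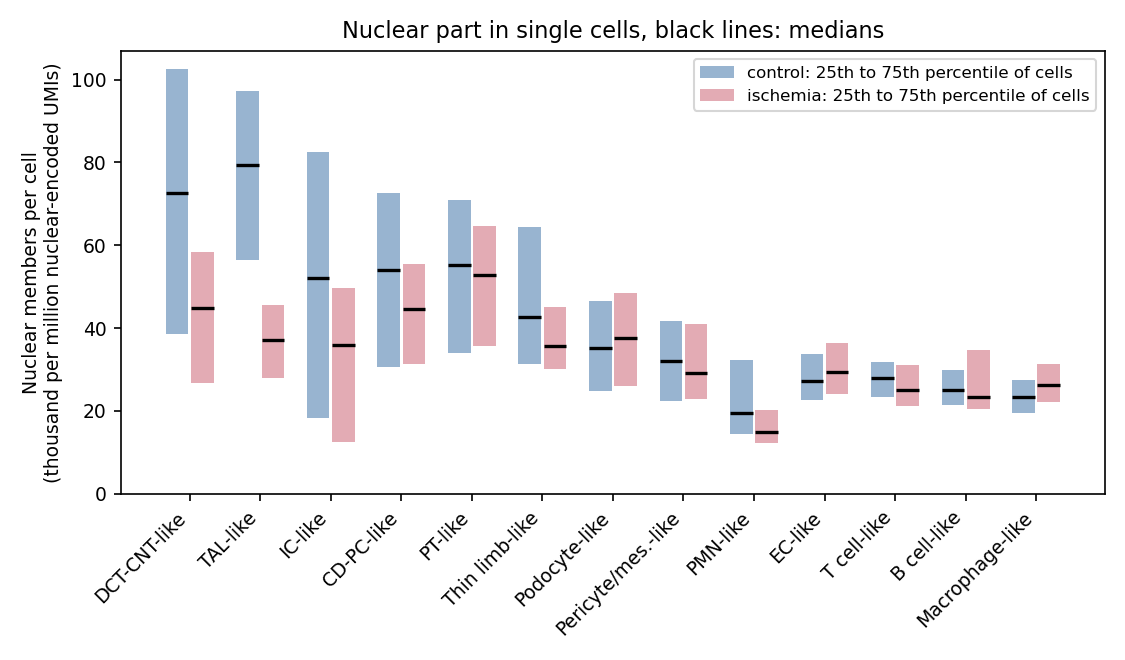
Nuclear part per cell in each cell type (CPM in units of 1000), for control and ischemia cells. Boxes run from the 25th to the 75th percentile of cells and black lines mark medians. The boxes of TAL-like cells do not overlap (medians 79464 and 37190 CPM), while those of PT-like cells nearly coincide (55244 and 52909).

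Nearly every tested nuclear member was lower in TAL-like cells. Of 88 members tested, 79 were at least 1.5-fold lower in ischemia and none was higher, where 18.2% of all 10000 nuclear-encoded genes tested in these cells were lower and 12.3% higher by the same rule. The members' median log2 ratio was -1.08 and that of all genes -0.02. Cox6b2 was the 1 tested member above control, at 8.45 and 12.4 CPM. Counts were spread over all complexes. Lower were 34 of 37 tested genes of complex I, 4 of 4 of complex II, 8 of 8 of complex III, 12 of 14 of complex IV and 16 of 17 of complex V. Of the 8 Ndufaf assembly factors, which build complex I without staying in it, 5 were lower. Summed over its genes, complex II had the smallest ratio, with 1394 CPM in control and 606 in ischemia (0.435, 0.421 to 0.449), and complex IV the largest of the 5 complexes, with 23269 and 12396 (0.533, 0.529 to 0.537).

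The genes given next for the distal tubule were in part chosen after their values were seen. In complex I of TAL-like cells, Ndufb10, a membrane-arm subunit, had 787 CPM in control and 237 in ischemia (ratio 0.302, 0.287 to 0.317), and Ndufs1, which carries iron-sulfur clusters of the electron path, had 208 and 65.4. Ndufa2, an accessory subunit of the matrix arm, had 714 and 587 and was not called. In complex II, which oxidizes succinate, the flavoprotein Sdha had 404 and 164 CPM and the iron-sulfur protein Sdhb had 519 and 212. The membrane anchors Sdhc and Sdhd had 215 and 130, and 256 and 99.4. In complex III, the Rieske iron-sulfur protein Uqcrfs1 had 562 and 197, and the hinge protein Uqcrh 1754 and 727. In complex IV, Cox4i1 had 3053 and 1778, and Cox6c 3279 and 2131, a log2 ratio of -0.62 that just passed the threshold. In complex V, Atp5a1 had 1560 and 576, and the catalytic subunit Atp5b 2232 and 992. All genes of this paragraph but Ndufa2 passed the 1.5-fold threshold.

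Members encoding the same mature protein differed. Atp5g1, Atp5g2 and Atp5g3 each encode subunit c, which forms the rotating ring of ATP synthase. In TAL-like cells Atp5g1 had 2378 CPM in control and 802 in ischemia (ratio 0.337, 0.328 to 0.347), and Atp5g3 had 1304 and 565 (0.433, 0.419 to 0.448). Atp5g2 had 700 and 572 (0.818, 0.787 to 0.851) and was not called. The same order held in DCT-CNT-like cells, where Atp5g1 had 2376 and 1020 CPM and Atp5g2 782 and 622, and in IC-like cells, where they had 2073 and 968, and 606 and 493. In PT-like cells Atp5g1 had 1252 and 1104 CPM, while Atp5g2 had 425 in control and 543 in ischemia (1.28, 1.26 to 1.30), the highest ratio of any tested member there.

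DCT-CNT-like cells differed between the kidneys in the same direction as TAL-like cells, and less. Of 88 tested members 67 were lower and none was higher, against 12.5% lower and 12.7% higher among all genes tested, with a median log2 ratio of -0.78 over the members and 0.05 over all genes. All 4 tested genes of complex II, all 8 of complex III, 31 of 37 of complex I and 15 of 17 of complex V were lower, but only 7 of 14 of complex IV and 2 of 8 Ndufaf genes. In IC-like cells 62 of 83 members were lower and none was higher, against 18.9% of all genes lower. Of the 83 members tested in all 3 of these types, 57 were lower in each, against 7.8% of the 2704 genes tested in all 3, and 7 members (Atp5g2, Cox7a2l, Ndufa1, Ndufa2, Ndufa7, Ndufaf2 and Ndufaf8) in none.

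**Figure D3:**
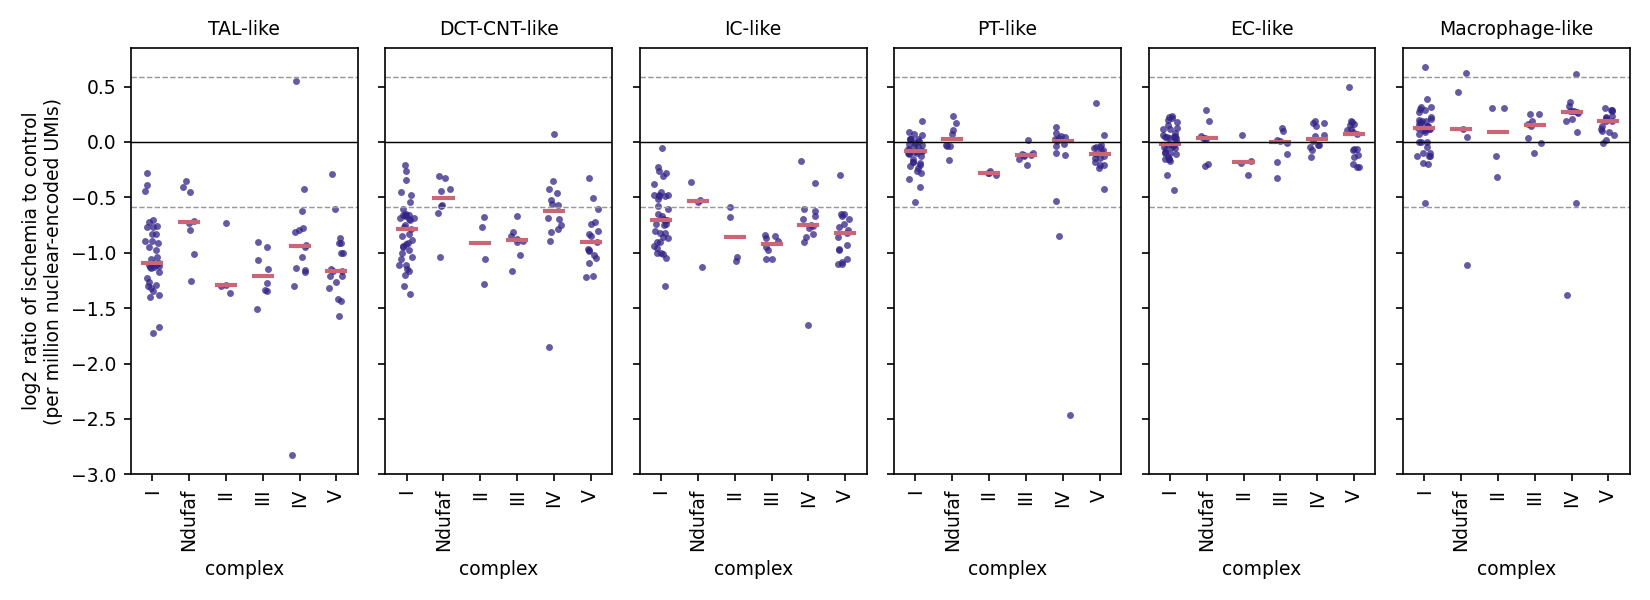
Log2 ratio of ischemia to control (of CPM) of each tested nuclear member, by complex, in TAL-, DCT-CNT-, IC-, PT-, EC- and macrophage-like cells. Points are genes, pink bars medians and dashed lines 1.5-fold. In TAL-like cells 79 of 88 points lie under the lower line, in PT-like cells 2 of 89.

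Several other measures moved with these values. The 6 TAL markers themselves were all lower in TAL-like cells, with a summed level of 32406 CPM in control and 12348 in ischemia, and 6 of 9 DCT-CNT and 6 of 9 IC markers were lower in their types. Ribosomal protein genes had 72514 CPM in control and 93259 in ischemia in TAL-like cells (ratio 1.29), and 1.22 times control in DCT-CNT-like cells. The part of the markers and of the ribosomal protein genes in the result was not tested. Malat1, a transcript retained in the nucleus, had 39341 and 52727 CPM in TAL-like cells. Among TAL-like cells with Malat1 under 2% of nuclear-encoded UMIs the nuclear part was 101382 in control and 52043 in ischemia, and among those over 5% it was 55981 and 33568. It was also below control in each range of mitochondrial share and of depth, for example 70898 and 36810 CPM in cells with 10 to 25% mitochondrial UMIs. The same held in DCT-CNT-like cells. Among IC-like cells with Malat1 over 5%, however, it was 34400 in control and 35691 in ischemia. PT markers summed to 1274 and 608 CPM in TAL-like cells and 14083 and 7789 in PT-like cells, whereas TAL markers in IC-like cells summed to 586 and 1749. The PT markers, here and below, include the injury genes Havcr1, Krt20, Sox9, Vcam1 and Cdkn1a.

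Because so many members moved together in the distal tubule, the letters of their promoters were examined. RefSeq promoter sequences (build GRCm38.p6, 250 bases before to 50 bases after the start site) matched 75 of the 94 nuclear members. Short motifs of 4 factors known in mitochondrial or hypoxic gene control were searched on both strands. A gene with more than 1 promoter counted where any of them matched. The NRF1 motif TGCGCA occurred in 24.0% of matched members and 8.79% of all 27025 genes with a promoter. These genes were not limited to those expressed in the kidney, and no set of similarly expressed genes was searched. The GABP motif CCGGAAG occurred in 25.3% and 9.93%, and the estrogen-related receptor (ERR) motif AAGGTCA in 10.7% and 5.38%. For the hypoxia-inducible factor (HIF) motif ACGTG the shares were 22.7% and 21.8%. Among the 66 matched members that were lower in TAL-like cells these shares were 25.8, 27.3, 12.1 and 19.7%, and among the 7 other matched members tested there they were 14.3, 14.3, 0.0 and 42.9%. Each motif match is a description of letters and not a site of binding.

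Below are 4 of these promoters, chosen after the values were seen: Cox7a1 and Ndufb10 as members with very low ratios in TAL-like cells, and Atp5g1 and Atp5g2 as the subunit c genes that parted. All 4 hold a HIF match, whereas 22.7% of matched members and 21.8% of all genes do, so they do not stand for the members. The promoter of Cox6b2, which was above control in TAL-like cells, was also searched and held no match to any of the motifs. They are written 5′ to 3′ along the gene, with motif matches on either strand in capitals, so that a HIF match reads ACGTG or CACGT. In Ndufb10 the capitals mark the NRF1 and the HIF motif, in Atp5g2 the HIF and then the NRF1 motif, and in Cox7a1 and Atp5g1 the HIF motif only, which overlaps its own match on the other strand in the last capitals of Atp5g1. Cox7a1 is at chr7:30183921-30184220 on the plus strand, Ndufb10 at chr17:24724374-24724673, Atp5g1 at chr11:96075582-96075881 and Atp5g2 at chr15:102670998-102671297, all 3 on the minus strand.
Cox7a1: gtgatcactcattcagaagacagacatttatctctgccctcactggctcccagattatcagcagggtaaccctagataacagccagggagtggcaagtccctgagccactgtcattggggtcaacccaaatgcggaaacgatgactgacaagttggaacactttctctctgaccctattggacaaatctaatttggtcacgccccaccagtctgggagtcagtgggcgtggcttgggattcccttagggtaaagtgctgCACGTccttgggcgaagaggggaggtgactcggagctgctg
Ndufb10: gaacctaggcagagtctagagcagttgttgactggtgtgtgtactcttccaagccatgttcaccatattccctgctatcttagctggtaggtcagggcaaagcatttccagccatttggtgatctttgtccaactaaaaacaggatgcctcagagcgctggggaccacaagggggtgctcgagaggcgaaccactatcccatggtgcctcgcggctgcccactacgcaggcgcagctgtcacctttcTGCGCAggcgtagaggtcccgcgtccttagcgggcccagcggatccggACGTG
Atp5g1: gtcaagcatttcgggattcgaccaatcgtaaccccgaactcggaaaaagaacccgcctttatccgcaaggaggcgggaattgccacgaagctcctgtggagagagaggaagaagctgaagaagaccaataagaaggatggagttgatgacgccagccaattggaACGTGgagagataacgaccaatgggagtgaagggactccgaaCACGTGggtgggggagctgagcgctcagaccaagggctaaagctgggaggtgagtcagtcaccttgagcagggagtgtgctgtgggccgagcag
Atp5g2: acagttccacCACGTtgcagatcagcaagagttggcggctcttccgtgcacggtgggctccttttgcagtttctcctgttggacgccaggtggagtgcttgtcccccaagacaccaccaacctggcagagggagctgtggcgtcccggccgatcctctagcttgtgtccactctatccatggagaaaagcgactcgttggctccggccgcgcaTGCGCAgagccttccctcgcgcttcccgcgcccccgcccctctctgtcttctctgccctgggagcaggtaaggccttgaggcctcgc

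PT-like cells, which reabsorb most of the filtered load and whose mitochondria burn fatty acids, kept their nuclear part close to control. Of 89 tested members 2 were lower and none was higher, against 9.39% lower and 12.0% higher among all 12314 genes tested. The median log2 ratio was -0.08 over the members and 0.04 over all genes, and 65 of the 89 lay below control. Both lower members are tissue-restricted forms of complex IV subunits. Cox6a2, the form known from heart and skeletal muscle, had 6.27 CPM in control and 1.14 in ischemia, from 331 and 60 UMIs. Cox7a1, also known from muscle, had 36.7 and 20.4 (ratio 0.555, 0.515 to 0.598).

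Complex by complex, PT-like cells had summed levels of 17333 and 16187 CPM for complex I (ratio 0.934), 1165 and 960 for complex II (0.824, 0.815 to 0.834), 6232 and 5802 for complex III (0.931), 15858 and 15803 for complex IV (0.997) and 15593 and 14450 for complex V (0.927). Complex II thus had the lowest ratio here, as it did in TAL- and DCT-CNT-like cells. Its members Sdhb, Sdha and Sdhd had 381 and 317, 329 and 271, and 217 and 177 CPM. Beyond the called genes, the lowest ratios belonged to Ndufs1 (156 and 107 CPM), Cox6b2 (23.9 and 16.5), Atp5k (857 and 637), Ndufv3 (547 and 414), Ndufc1 (661 and 526), Sdhd and Ndufc2 (510 and 419). After Atp5g2, the highest belonged to the assembly factors Ndufaf2 (71.2 and 83.8) and Ndufaf5 (13.5 and 15.2) and to the complex I subunit Ndufb6 (404 and 459). Of the members with most UMIs over all kept cells in their complex, Ndufb9 had 1128 and 1068 CPM, Uqcr10 1183 and 1200, Cox6c 2131 and 2080, and Atp5b 1515 and 1388.

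PT-like cells comprised 3 clusters, and the summed nuclear part differed little in each. It was 53127 and 50546 CPM in one led by Slc5a12 and 65522 and 64120 in one led by Inmt and Acsm3. In one led by Slc7a13 it was 56226 and 54076. The median cell of the Slc5a12 cluster had 34661 CPM in control and 41019 in ischemia, against the direction of its sum. Medians were 63408 and 62265 in the Inmt cluster and 55074 and 53692 in the Slc7a13 cluster. PT markers, injury genes included, moved more than the members did, with 9 lower and 4 higher of 16. Ribosomal protein genes had 69231 CPM in control and 104479 in ischemia (ratio 1.51), so the nuclear part relative to ribosomal protein UMIs had a log2 ratio of -0.67 in PT-like cells and 67 members were then at least 1.5-fold lower. Among PT-like cells with Malat1 over 5% the nuclear part was 28488 in control and 32943 in ischemia, above control, while under 2% it was 68930 and 64444.

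The ratios of the other epithelial types lay between those of IC- and PT-like cells in this scaling. CD-PC-like cells, which carry the water channel Aqp2, had 59955 and 46816 CPM, and 15 of 88 members were lower, against 13.8% of all genes. Complex II stood at 3 of 4 lower, complex III at 3 of 8 and complex I at 6 of 37. Thin limb-like cells had 48693 and 36166, and 15 of 85 members were lower, against 15.6% of all genes. Podocyte-like cells of the glomerular filter had 31800 and 29141, with 2 of 78 members lower (Ndufa8 and Sdhb), against 4.95% of all genes.

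EC-, pericyte/mesenchymal- and T cell-like cells were near control, while macrophage- and B cell-like cells lay above it in this scaling. EC-like cells had 27020 and 27475 CPM, and 0 of 86 members were lower, against 8.51% of all genes. Pericyte/mesenchymal-like cells had 31763 and 29167, and 0 of 86 were lower, against 7.25%. T cell-like cells had 26621 and 26569, with 0 of 65 lower, against 6.09%. Ndufa12 was higher there, but the share of all genes that were higher is not given, so this call cannot be read as a trait of the members. Macrophage-like cells, of which the ischemia library held 577 and the control library 288, had 24243 and 27290 (ratio 1.13, 1.11 to 1.14). Of their 84 tested members 2 were lower (Cox6a2 and Ndufaf7), against 10.1%, and 3 were higher (Ndufb6, Cox5a and Ndufaf8), against 15.9%. The median log2 ratio was 0.16 over these members and 0.11 over all genes tested in macrophage-like cells. B cell-like cells, which also carried the plasma cell genes Jchain and Mzb1, had 24574 and 31301 in 42 and 48 cells. Of 52 members tested there 0 were lower, against 5.29%, and 9 were higher, against 20.1% of all genes. The median log2 ratio was 0.32 over these members and 0.21 over all genes tested in B cell-like cells. The markers of these 2 types also differed between the kidneys. Macrophage markers summed to 34038 CPM in control and 20940 in ischemia in macrophage-like cells, with 5 lower and 5 higher of 12. B cell markers summed to 61834 and 29310 in B cell-like cells, with 2 lower and 0 higher of 8. The part of these markers in the result was not tested. PT markers, injury genes included, were met in all of these cells at a lower level in ischemia. They summed to 1987 and 1204 CPM in macrophage-like, 2841 and 1668 in EC-like and 2814 and 1296 in T cell-like cells. Their part in the levels of the nuclear part was not tested.

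PMN-like cells had the lowest ratio of the immune types, with 31413 CPM in 33 control cells and 19279 in 208 ischemia cells, and 58 of 76 members lower, against 22.0% of all genes. Among those with at least 10 UMIs of S100a8 and S100a9, the defining neutrophil genes, which left 19 and 186 cells, the values were 18374 and 15783. The log2 ratio, -0.70, ran from -0.78 to -0.07 over 16 other settings, the latter when cells were chosen by marker UMIs. PMN markers had a summed level of 39934 CPM in control and 75048 in ischemia in PMN-like cells, with 7 of 8 higher, PT markers 2322 and 1304, and ribosomal protein genes a ratio of 0.718 with 80 of 80 tested below control, and their part in the result was not tested.

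With the limits and clusters used here, the mitochondrial part was below control in all 13 types, with a different order. Over all kept cells it was 25.2% of UMIs in control and 20.1% in ischemia, a ratio of 0.797 (0.797 to 0.798). TAL-like cells had 31.9 and 25.8% (0.808), DCT-CNT-like cells 29.5 and 28.2% (0.956) and IC-like cells 25.9 and 19.2% (0.743). PT-like cells had 26.5 and 22.5% (0.849) and CD-PC-like cells 21.5 and 15.0% (0.701). Macrophage-like cells, at 9.37 and 6.34%, had the smallest ratio, 0.676 (0.672 to 0.680), although their nuclear part was above control. These shares depend on which cells were kept, since 27.5% of control and 14.9% of ischemia cells had over 25% mitochondrial UMIs. With a limit of 25% in place of 55%, the log2 ratio over all cells moved from -0.33 to -0.07 and that in PT-like cells from -0.24 to -0.03, and it changed sign in TAL-like cells, to 0.09, and in DCT-CNT-like cells, to 0.23. Of 12 alternative settings, DCT-CNT-like cells kept the direction in 9, and B cell- and T cell-like cells in 10. Pericyte/mesenchymal-, podocyte- and TAL-like cells kept it in 11. The other types kept it in all alternatives.

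The 2 parts therefore did not move in step. Per UMI of a nuclear member, TAL-like cells held 5.84 mitochondrial UMIs in control and 8.70 in ischemia, DCT-CNT-like cells 4.87 and 7.68, and IC-like cells 4.78 and 5.45. In PT-like cells the ratio was 6.38 and 5.43, in CD-PC-like cells 4.56 and 3.78, in EC-like cells 3.68 and 3.04, and in macrophage-like cells 4.27 and 2.48. In PMN-like cells it was 3.93 and 4.69. It was thus above control in these 4 types, and in the other 9 it was below it.

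Among the 13 mitochondrial genes, mt-Atp8 stood apart. It encodes a small subunit of complex V and lies at chrM:7766-7969 (mm10, plus strand), where it overlaps mt-Atp6 at chrM:7927-8607, with which it shares a transcript. mt-Atp8 had 0.258% of all UMIs in control and 0.130% in ischemia in PT-like cells (ratio 0.503, 0.499 to 0.507), 0.339 and 0.155% in TAL-like cells (0.457), 0.299 and 0.157% in DCT-CNT-like cells (0.524) and 0.0820 and 0.0440% in macrophage-like cells (0.536). It was at least 1.5-fold lower in 12 of the 13 types. In contrast, mt-Atp6 had 4.78 and 4.12% in PT-like cells (0.861) and 5.75 and 4.31% in TAL-like cells (0.750), and was lower in 1 type. A read from the stretch that both genes cover cannot be given to one of them. These are 3' libraries, and the part of the counting of genes on a shared transcript in the unlike ratios was not tested.

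A similar, smaller difference was seen for mt-Nd4l and mt-Nd4, which also overlap on the plus strand. mt-Nd4l, at chrM:9877-10173, had 0.715 and 0.519% in PT-like cells (ratio 0.726) and 0.774 and 0.530% in TAL-like cells (0.685), and was lower in 6 types. Its partner mt-Nd4, at chrM:10167-11544, had 2.15 and 1.93% in PT-like cells (0.896) and 2.72 and 2.46% in TAL-like cells (0.904), and was lower in 0 types. mt-Nd6, the only mitochondrial gene here encoded on the minus strand, was rare, with 0.0426 and 0.0332% in PT-like cells, and it was lower in 3 of the 12 types in which it was tested. Of the genes of complex IV, mt-Co1, mt-Co2 and mt-Co3 had ratios of 0.842, 0.868 and 0.942 in PT-like cells and of 0.818, 0.833 and 0.835 in TAL-like cells. The remaining genes of complexes I and III, mt-Nd1, mt-Nd2, mt-Nd3, mt-Nd5 and mt-Cytb, lay between 0.738 and 0.876 in PT-like cells.

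**Figure D4:**
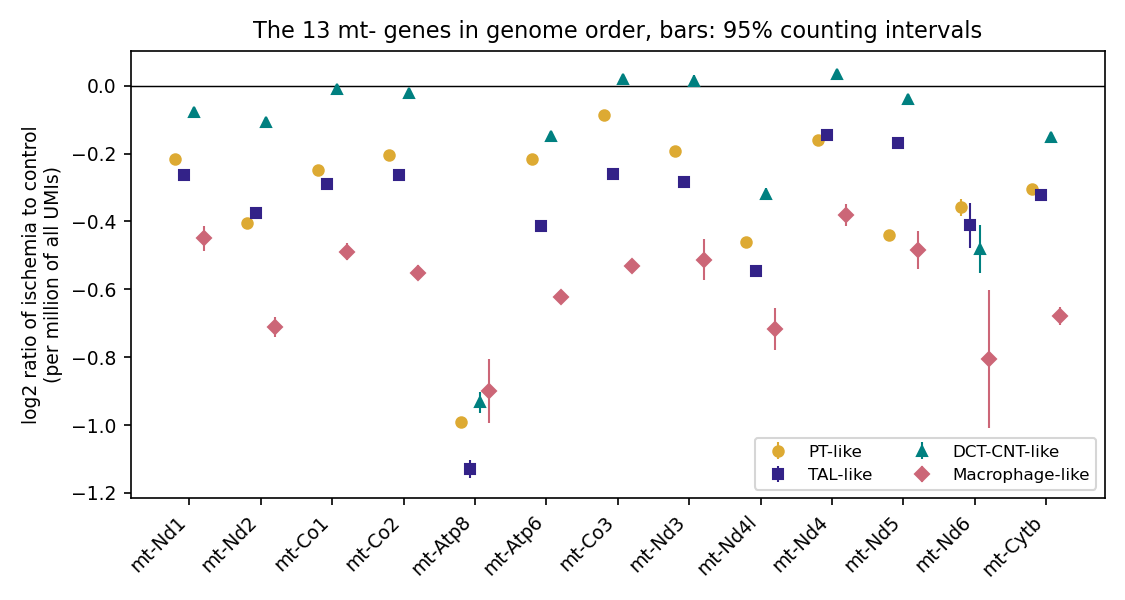
Log2 ratio of ischemia to control (of shares of all UMIs) of the 13 mitochondrial genes in genome order, in PT-, TAL-, DCT-CNT- and macrophage-like cells. Bars are 95% counting intervals. mt-Atp8 is the lowest point in each of the 4 types, with ratios of 0.503, 0.457, 0.524 and 0.536.

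Several complex IV subunits exist in forms that are restricted to certain tissues. Cox4i2, the hypoxia-associated form of Cox4i1, was a gene of pericyte/mesenchymal-like cells in both libraries, with 135 CPM in control and 141 in ischemia, from 224 of the library's 264 and 306 of its 361 UMIs. Ndufa4l2, a relative of the complex IV subunit Ndufa4, had the same distribution, with 361 and 346 CPM there, from 597 of 658 and 750 of 801 UMIs. Neither differed between the kidneys beyond counting error in these cells, with ratios of 1.04 and 0.960 whose intervals hold 1. In EC-like cells Ndufa4l2 had 5.72 and 2.94 CPM and in PT-like cells 0.246 and 0.152.

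Cox7a1 was at least 1.5-fold lower in each of the 6 types in which it was tested. In TAL-like cells it had 86.1 CPM in control and 12.1 in ischemia (ratio 0.141, 0.114 to 0.173), in thin limb-like cells 120 and 12.6, in CD-PC-like cells 129 and 31.9, in IC-like cells 135 and 42.9, and in DCT-CNT-like cells 44.0 and 12.2. Its ubiquitous counterpart Cox7a2 had 1690 and 767 CPM in TAL-like cells, 1512 and 899 in IC-like cells and 1197 and 1116 in PT-like cells. The member Cox7a2l had 218 and 162 in TAL-like and 162 and 178 in PT-like cells.

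Cox6a2 was counted mainly in 3 types. Macrophage-like cells had 43.7 CPM in control and 16.8 in ischemia, from 71 and 85 UMIs. B cell-like cells had 0 UMIs in control, which allows up to 17.7 CPM, and 25 UMIs or 98.8 CPM in ischemia. PT-like cells held 331 of the 463 Cox6a2 UMIs of the control library and 60 of the 187 of the ischemia library. The UMIs of the immune types came from few cells. In macrophage-like cells 5 of 288 control and 8 of 577 ischemia cells had any, with up to 23 and 30 in 1 cell, and in B cell-like cells 4 of 48 ischemia cells had any. In PT-like cells they were spread over 250 of 3909 control and 48 of 2775 ischemia cells, with at most 6 in 1 cell. The ubiquitous form Cox6a1 had 721 and 712 CPM in PT-like and 292 and 355 in macrophage-like cells.

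**Figure D5:**
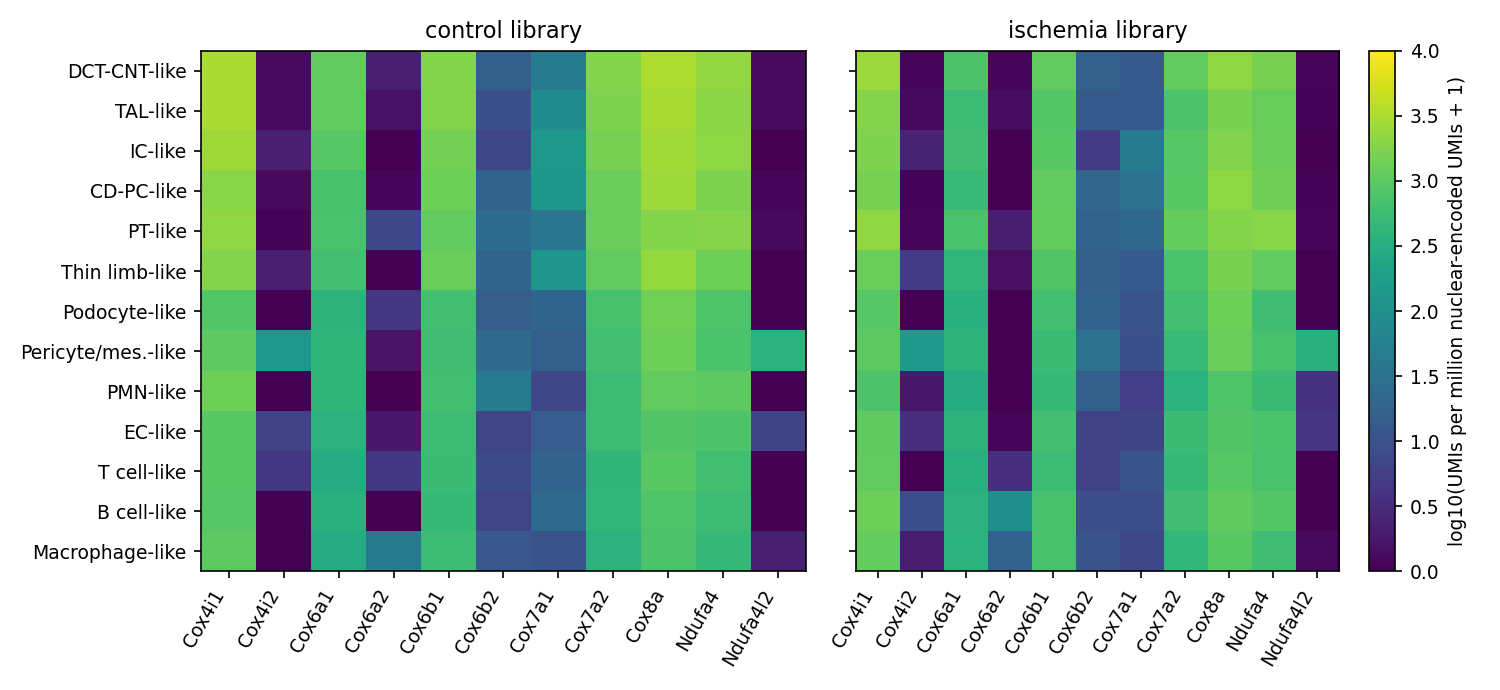
Levels of complex IV subunit forms and of Ndufa4 and Ndufa4l2 by cell type in the control and ischemia libraries, as log10(CPM + 1). Cox4i2 and Ndufa4l2 are bright in pericyte/mesenchymal-like cells of both libraries (135 and 141, and 361 and 346 CPM), while Cox7a1 is dimmer in ischemia in the tubular types.

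Beyond the members, cytochrome c and its docking partner were read in the same way. In TAL-like cells Cycs (cytochrome c) had 786 CPM in control and 260 in ischemia, and Cyc1, the cytochrome c1 of complex III, 710 and 241. In PT-like cells Cycs had 638 and 652, and Cyc1 441 and 401. Beside the counts that follow, the shares of all genes tested that were lower are 18.2% in TAL-like, 12.5% in DCT-CNT-like, 18.9% in IC-like, 13.8% in CD-PC-like and 9.39% in PT-like cells. The 17 chain genes outside the symbol rule, which are Cycs, Cyc1 and genes that make coenzyme Q or pass electrons to it, included 9 lower in TAL-like cells, 9 in DCT-CNT-like and 1 in PT-like cells, and 1 was higher in TAL-like cells, against 12.3% of all genes. Of the 13 TCA cycle genes, which supply the chain with NADH and succinate, 13 were lower in TAL-like cells, 12 in DCT-CNT-like cells, 10 in IC-like cells and 5 in CD-PC-like cells, against 1 (Dlst) in PT-like cells. Of 35 tested assembly genes of the complexes, 18 were lower in TAL-like, 12 in DCT-CNT-like and 0 in PT-like cells.

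Regulators of mitochondrial biogenesis included lower genes in TAL- and PT-like cells and in other types. In DCT-CNT-like cells 7 of 11 were lower, against 12.5% of all genes, and in CD-PC-like cells 6 of 10, against 13.8%. Pprc1 was higher in both types. Of all genes tested, 12.7% were higher in DCT-CNT-like cells and 886 of 10289 in CD-PC-like cells. In EC-like cells, where 0 of 86 members were lower, 4 of 9 regulators were, against 8.51%. In macrophage-like cells 1 of 6 was lower, against 10.1%, and Pprc1 was higher, against 15.9%. In TAL-like cells 7 of 11 tested were lower, against 18.2% of all genes, and 1 was higher, against 12.3%. Ppargc1a, the coactivator that drives the program, had 576 CPM in control and 118 in ischemia (ratio 0.205, 0.191 to 0.219), and Ppargc1b 81.3 and 24.2. The orphan nuclear receptors that it activates, Esrra, Esrrb and Esrrg, had 86.2 and 21.2, 110 and 26.3, and 1210 and 700. In contrast, the transcription factors Nrf1 (39.8 and 38.8) and Gabpa (20.9 and 20.2) were not called. In PT-like cells 5 of 11 were lower, against 9.39% of all genes (Esrrb, Sirt3, Esrra, Ppara and Ppargc1a) and Pprc1 was higher, against 12.0%. Ppargc1a had 113 and 73.7 there, Ppargc1b 33.1 and 24.0, and Esrra 80.3 and 50.3, while Nrf1 had 30.5 and 30.0. Of the genes that transcribe mitochondrial DNA and process its RNA, 3 of 19 were lower in TAL-like cells, a share near the 18.2% of all genes. In DCT-CNT-like cells 6 of 19 were lower, against 12.5%, and in PT-like cells 0 of 22, against 9.39%. Tfam, which packages that DNA and takes part in its transcription, had 47.0 and 32.5 CPM in TAL-like and 37.9 and 34.5 in PT-like cells. The mitochondrial RNA polymerase Polrmt had 11.7 and 10.1 in TAL-like and 12.0 and 11.7 in PT-like cells.

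The 2 clusters that took no name gave these values. A cluster of 849 control and 745 ischemia cells, led by Pvalb and Wfdc15b, had a nuclear part of 101053 and 63397 CPM, the highest of any cluster named or unnamed in control, and 59 of 87 members were lower, against 15.5% of all genes. A cluster of 10470 cells with a median of 836 UMIs, led in part by hemoglobin genes, had 52553 and 53119 CPM and a mitochondrial part of 20.0 and 12.7%. Its best marker list was that of PT, though no PT marker was among its leading genes. Its 4571 control and 5899 ischemia cells are not part of the values for PT-like cells.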

How the data were processed

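Kidney single-cell libraries (10x Genomics 3' v2) of 1 control and 1 ischemia sample were used. The authors deposited raw UMI counts per gene and barcode, made per the labels with Cell Ranger 7.0.0 and genome build mm10. The count matrices were filtered as given in the report. Cells were log-normalised (scale factor 10000), joined over libraries by anchors on 2000 variable genes without members, and clustered on 30 principal components at resolution 0.3 with seed 42 (Seurat 5.3.0, R 4.3.3). A cluster took the name of its best marker list where at least 3 markers had 10 UMIs or more and either its 10 leading genes (at least 50 UMIs) held a marker of that list and fewer of any other, or they held no marker of another list and its median depth was, in both libraries, at least the library's median divided by 3. This naming rule was set with the clusters in view.

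UMIs were summed per library and type (numpy 2.4.6, scipy 1.17.1, pandas 2.3.3). Ratios have exact conditional binomial 95% intervals and shares exact Clopper-Pearson ones. UMIs collapse PCR copies, and the intervals speak only to counting error. No test between groups was run, as each had 1 library. Scripts were tested on simulated data. Genes were named by rule: the mt- genes, the most abundant member of each complex, the 10 lowest and 10 highest ratios in PT-like cells, complex IV isoforms, members specific to 1 type and chosen regulators. Atp5if1 is not listed under that symbol. Other named genes were chosen after their values were seen. Members, marker lists and gene lists were chosen with earlier results of these data known. Scrublet (scanpy 1.11.5) called 0 doublets in either library, so doublets were kept. Alternatives included other cell limits, scalings (TMM of edgeR 4.0.16 among them), thinning to 1000 UMIs and other clusterings.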

Additional observations from a re-analysis of the deposited data

Results flagged for a closer look

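In 3 cell types the nuclear part lay above control in the ischemic kidney while that of TAL-like cells lay below it, with a log2 ratio of -1.01. These were B cell-like cells, with a log2 ratio of 0.35 (95% counting interval 0.29 to 0.40) from 42 control and 48 ischemia cells, macrophage-like cells, with 0.17 (0.15 to 0.19), and EC-like cells, with 0.024 (0.013 to 0.035). With 1 library per group these differences from TAL-like cells were not tested. Among B cell-like cells 58.3% of the ischemia cells lay below the control median of 25049 CPM, against the direction of the summed level, and when cells were chosen by UMIs of markers and not by cluster, the log2 ratio of B cells was -0.10. Scaled to ribosomal protein UMIs, that of EC-like cells was -0.55. The log2 ratio of macrophage-like cells ran from 0.059 to 0.23 over 16 other settings. All genes tested had a median log2 ratio of 0.11 in macrophage-like and 0.21 in B cell-like cells.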

How the results depend on the processing

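No paired analysis was possible because each group has 1 library. The values below are log2 ratios of ischemia to control unless they are counts of members. There were 115 alternative values of 7 main results, and each log2 ratio among them kept its direction. The others are counts of lower members, which cannot turn negative, so direction tells nothing of those. Of the 115 values 52 stayed within their counting interval (counts of members within 1.5 times) and 63 moved further. Of 316 values for the other types 296 kept their direction, and of 918 for named genes 857 did. The main values were -0.33 for the mitochondrial part of all cells and -0.24 for that of PT-like cells, -0.08, -1.01 and -0.75 for the nuclear part of PT-, TAL- and DCT-CNT-like cells, and 2 and 79 lower members in PT- and TAL-like cells. Where values follow below for the nuclear part, they stand in the order PT-, TAL- and DCT-CNT-like unless named.

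A limit of 25% mitochondrial UMIs gave -0.067 and -0.031 for the mitochondrial part of all and of PT-like cells and -0.15, -0.90 and -0.67 for the nuclear part. No limit gave -0.30 and -0.25, and -0.069, -0.96 and -0.72. A minimum of 1000 UMIs gave -0.32 and -0.24. The mean of each cell's own share gave -0.36 and -0.18, and -0.083, -1.03 and -0.71. Thinning to 1000 UMIs gave -0.29 and -0.20, -0.10 in PT-like and -0.70 in DCT-CNT-like cells, and 1 lower member in PT-like cells. Clustering without integration gave -0.30 for the mitochondrial part of PT-like cells and -0.028, -1.05 and -0.72. Resolution 0.6 gave -0.96 and -0.73 in TAL- and DCT-CNT-like cells. A gate on marker UMIs gave -0.24 for the mitochondrial part of PT-like cells and -0.073, -0.95 and -0.62. Scaling to all UMIs gave -0.0011, -0.88 and -0.72, a TMM factor -0.13, -0.97 and -0.81 with 4 lower members in PT-like cells, and the median ratio over genes -0.12, -0.98 and -0.80. A log2 threshold of 0.32 gave 7 lower members in PT-like cells, and a threshold of 2-fold gave 1 in PT-like and 51 in TAL-like cells.

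Other alternatives were chosen after seeing the data. Without the 8% of cells that scored highest for doublets, the values were -0.33 and -0.24 for the mitochondrial part of all and PT-like cells, and -1.03 and -0.77 for the nuclear part of TAL- and DCT-CNT-like cells. Scaling to ribosomal protein UMIs, which moves every gene by the log2 ratio of those genes (0.59, 0.36 and 0.28), gave -0.67, -1.37 and -1.03 and 67 lower members in PT-like cells. Cells with Malat1 at no more than 5% gave -0.40 and -0.26 for the mitochondrial part, and -0.089 and -0.97 for the nuclear part of PT- and TAL-like cells. Cells with at least 5000 UMIs gave -0.34 and -0.24, and -0.070 and -0.75 in PT- and DCT-CNT-like cells. PT-like cells without the cluster led by Inmt gave -0.26 and -0.069. The planned run without called doublets could not be made, since none was called. Ndufa4l2 in PT-like cells, counted with 13 and 8 UMIs, turned from -0.70 to 0.53, 0.41 and 0.89 under the mean of each cell's share, thinning and no integration. The cause of these changes was not tested. Small types (IC-, PMN-, podocyte- and B cell-like) rest on few cells, and there depth limits what can be called.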

Other observations

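The barcodes that the 55% limit on mitochondrial UMIs removed were looked at apart. The control library lost 2517 of them and the ischemia library 2136, with 71.8 and 74.1% mitochondrial UMIs. Their nuclear part was 37613 CPM in control and 35337 in ischemia, below the 59097 and 47418 of the kept cells. Just inside the limit, 264 control and 171 ischemia cells had 50 to 55% mitochondrial UMIs, and just outside it 276 and 170 barcodes had 55 to 60%.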
